A study of Mus musculus with 48 samples.

Results

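The genes described here are *Brd1* and 8 genes for subunits of the same family of histone acetyltransferase complexes. The 8 are called partners below, although *Brpf1* and *Brpf3* encode scaffolds that take the place of BRD1. All were taken by symbol and mapped to the Ensembl identifiers of the deposited expression table, so that 9 genes of 52636 were examined. They are the scaffolds *Brd1*, *Brpf1* and *Brpf3*, the catalytic subunits *Kat6a*, *Kat6b* and *Kat7*, and the small subunits *Ing4*, *Ing5* and *Meaf6*. Each symbol matched 1 identifier. RNA had been sequenced from punches of the amygdala (AMG) of 48 female mice aged 8 to 11 weeks, 8 mice in each of 6 groups. All were of the strain labelled C57BL/6NTac-Brd1 and carried either both copies of *Brd1* (WT) or 1 copy from which exons had been deleted (*Brd1*+/-). Each genotype received vehicle, the tricyclic antidepressant imipramine (IMN, 10 mg/kg) or the selective serotonin reuptake inhibitor fluoxetine (FLX, 5 mg/kg). Per the study's methods the line, C57BL/6NTac-Brd1tm1.2Arte/AborgMmucd, was heterozygous for a targeted deletion made with loxP sites around the exons, vehicle was saline, and all mice had passed through behavioral tests ending with a forced swim shortly before the tissue was taken.

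The acetyltransferases of this family work as small assemblies in which a scaffold protein of the BRPF family holds a catalytic subunit, an ING protein and MEAF6 together. BRD1, also called BRPF2, carries a bromodomain, which binds acetylated lysine, and directs the catalytic subunit KAT7, also called HBO1, toward the tail of histone H3. BRPF1 is best known as the scaffold of KAT6A and KAT6B, and BRPF3 as another scaffold of KAT7. ING4 and ING5 read methylated histone tails through a PHD finger, and MEAF6 is a small subunit that these assemblies share. Loss of 1 *Brd1* copy therefore raises the question of whether the other parts of the assemblies changed in level with it.

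*Brd1* (ENSMUSG00000022387) lies on the minus strand of GRCm38 chromosome 15, from 88687034 to 88734233. The study's methods place the deletion at exons 3 to 5. Along the annotated transcript Brd1-203, which has 13 exons and 5152 bases, these exons span chr15:88716906-88717062, chr15:88713886-88714017 and chr15:88713298-88713426, all of them coding. They are shown because they are what the *Brd1*+/- allele lacks, and the last line shows what joining exon 2 to exon 6 gives, from the last 30 bases of exon 2 to the first in-frame stop codon, in capitals.
exon 3: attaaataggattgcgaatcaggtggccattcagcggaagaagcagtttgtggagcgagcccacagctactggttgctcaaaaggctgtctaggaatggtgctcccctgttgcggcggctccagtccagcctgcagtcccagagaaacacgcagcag
exon 4: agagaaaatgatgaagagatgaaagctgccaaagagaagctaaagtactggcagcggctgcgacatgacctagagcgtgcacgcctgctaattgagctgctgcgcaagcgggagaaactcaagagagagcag
exon 5: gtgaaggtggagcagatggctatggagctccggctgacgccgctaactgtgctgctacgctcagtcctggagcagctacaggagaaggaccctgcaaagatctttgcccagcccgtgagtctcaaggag
exon 2 joined to exon 6: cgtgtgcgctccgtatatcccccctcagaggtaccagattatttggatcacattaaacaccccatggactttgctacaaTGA
Together the exons hold 418 bases, which leaves a remainder of 1 when divided by 3. In the joined sequence the reading frame met a stop 52 bases into exon 6, after 472 codons against 1189 in the intact transcript. This is a computation from the reference, and no transcript of the deleted allele was observed here. The transcript by which the study numbered the exons is not given in the sources used here, and in the annotation another coding transcript counts them differently. The 418 bases make up 8.11% of Brd1-203 and 4.97% of all annotated exonic bases of the gene, so a level summed over the gene can also hold reads from the rest of the deleted allele.

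*Brd1* had a lower mean level in *Brd1*+/- mice under each treatment. Between genotypes it was called over all treatments together and with FLX, and not with vehicle or IMN. None of the 8 partners was called. In these fits 0.017% to 1.54% of all genes tested were called. In vehicle mice the lowest, median and highest *Brd1* levels were 26.5, 37.9 and 41.0 TPM in WT and 21.8, 26.2 and 30.6 TPM in *Brd1*+/- libraries. TPM divides the reads of a gene by its length and scales each library to the same sum, so the number of reads behind a value is unknown. IMN mice had 31.9, 37.3 and 41.0 TPM in WT and 16.6, 22.8 and 29.5 TPM in *Brd1*+/- libraries. With FLX they were 24.9, 33.1 and 39.3 TPM in WT and 18.0, 24.4 and 27.2 TPM in *Brd1*+/- libraries. The ranges did not overlap with IMN. With vehicle, 5 of 8 *Brd1*+/- libraries lay below the lowest WT library and 7 of 8 WT libraries lay above the highest *Brd1*+/- library, and with FLX the numbers were 4 and 7.

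**Figure D1:**
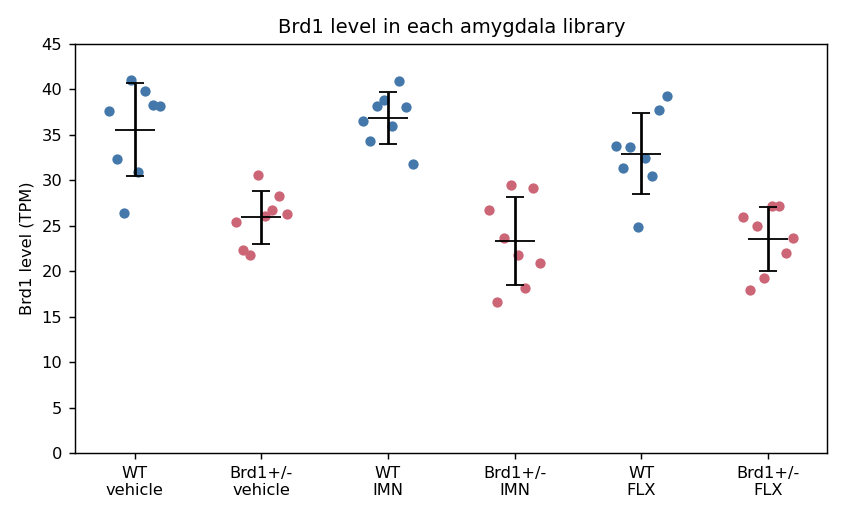
*Brd1* level (TPM, y axis) in each of the 48 libraries by group (x axis), with the mean and SD of 8 mice as a bar with caps. Blue points are WT and red points *Brd1*+/- mice. The *Brd1*+/- IMN libraries (16.6 to 29.5 TPM) all lie below the WT IMN libraries (31.9 to 41.0 TPM), and the genotypes overlap with vehicle and with FLX.

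In a limma fit of log2(TPM + 0.1) over all 48 libraries with treatment as a covariate, *Brd1* fell by 0.54 on the log2 scale (SE 0.06, 95% interval −0.66 to −0.41, adjusted *p* = 8.90e-07). Its mean over 24 mice was 35.1 ± 4.37 TPM in WT and 24.3 ± 3.85 TPM in *Brd1*+/- mice (SD), which is 30.9% lower. Of the 9 genes this was the only call, against 0.0215% of the 27944 genes tested, and by *p*-value *Brd1* ranked 1 among them. In the fits within a treatment *Brd1* had a log2 difference of −0.45 (adjusted *p* = 0.0512) with vehicle, −0.68 (adjusted *p* = 0.102) with IMN and −0.49 (adjusted *p* = 0.0362) with FLX, in limma. The calls were thus 0 of 9 members with vehicle and 0 of 9 with IMN, against 0.708% and 0.017% of all genes, and 1 of 9 with FLX, against 1.54% of all genes. At an unadjusted *p* under 0.05 there were 1 member with vehicle, 2 with IMN and 1 with FLX. Of all genes tested, 2068 (8.52%), 844 (3.58%) and 3928 (16.6%) passed this threshold. Leaving out 1 library moved the number of genes called from 172 to between 80 (without *Brd1*+/- vehicle replicate 4) and 349 (without WT vehicle replicate 1) with vehicle, and from 364 to between 70 (without WT FLX replicate 7) and 490 with FLX.

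The fits within a treatment stood near the threshold. The FLX call held in 5 of the 16 fits that left out 1 library (adjusted *p* 0.0213 to 0.0874, log2 difference −0.54 to −0.43), and it was lost without the trended prior (adjusted *p* = 0.0527) or with the code range as a covariate (0.0505). With vehicle and IMN *Brd1* was called after median-ratio scaling of the libraries (adjusted *p* = 0.00822 and 0.00115). Exact two-sided permutation tests of *Brd1* alone, 8 against 8 libraries, gave *p* = 0.00109 with vehicle, 0.000155 with IMN and 0.000777 with FLX, and 0.00109, 0.000466 and 0.00109 after adjustment over the 3 treatments. No lower *p* than that of IMN can be reached with 8 libraries in each group.

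The codes in the sample descriptions fell into separate runs of numbers, a lower and an upper range in vehicle mice and another lower and upper range in drug-treated mice. Within each range *Brd1* was lower in *Brd1*+/- mice, with log2 differences of −0.32 and −0.53 in the lower and upper range of vehicle mice, −0.63 and −0.81 with IMN and −0.59 and −0.45 with FLX, from 2 to 6 libraries of each genotype. In the upper drug range every *Brd1*+/- mouse had a lower code than every WT mouse. The differences there (−0.81 with IMN and −0.45 with FLX) therefore did not hold the code constant. In the other ranges the codes of the genotypes were interleaved. What the codes stand for is not given in the sources used here. No vehicle mouse had a code in the drug ranges, so a drug against vehicle and the code range cannot be told apart. IMN and FLX mice shared both drug ranges.

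Markers of several brain cell types were present in every group and varied widely between punches. Of the 7 marker lists used to check the tissue, none held a gene at 0 in every library of a group. The 6 amygdala markers summed to between 277 and 1803 TPM and the 6 neuronal markers to between 1729 and 4954 TPM. Most of the amygdala sum came from *Sst*, with means of 748 TPM in WT and 811 TPM in *Brd1*+/- mice. *Dlk1* was at 0 in 11 libraries and *Tac2* in 3, so this sum is a weak check of the region. The 7 markers of striatal projection neurons ranged from 130 to 7996 TPM, the 6 of mature oligodendrocytes from 642 to 16268 TPM, and the 5 of choroid plexus from 7.39 to 29502 TPM. With the mean log2 levels of the striatal, oligodendrocyte and choroid plexus markers as covariates, the pooled *Brd1* difference was −0.53. In such bulk tissue, fewer cells of a type and less RNA per cell cannot be told apart.

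The scaffolds that can stand beside BRD1 were examined next. *Brpf1* (ENSMUSG00000001632, chromosome 6, 113307137 to 113324860, plus strand) was 21.9 ± 3.71 TPM in WT and 22.6 ± 3.18 TPM in *Brd1*+/- mice (SD, n = 24 each). *Brpf3* (ENSMUSG00000063952, chromosome 17, 28801090 to 28839949, plus strand) was 16.5 ± 3.26 TPM in WT and 17.0 ± 3.41 TPM in *Brd1*+/- mice (SD, n = 24 each). Opposite-strand genes share 3.76% of the exonic bases of *Brpf1* and 3.14% and 1.38% of those of *Brpf3*, and reads from these stretches are uncertain. The genotypes overlapped over most of their ranges for both genes, with medians of 21.2 against 22.3 TPM for *Brpf1* and 16.4 against 16.6 TPM for *Brpf3*. The pooled log2 differences were 0.05 (95% interval −0.08 to 0.19) for *Brpf1* and 0.04 (−0.13 to 0.21) for *Brpf3*. A rise up to these upper bounds is not excluded by the intervals. Within a treatment the intervals were wider, with upper bounds of 0.14, 0.38 and 0.39 for *Brpf1* and 0.37, 0.43 and 0.23 for *Brpf3* with vehicle, IMN and FLX.

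The makeup of the scaffold transcripts differed between the genotypes. *Brd1* supplied 35.5% to 57.1% of the summed TPM of the 3 scaffolds in the 24 WT libraries, with a mean of 47.9% ± 5.30 (SD), and 29.8% to 44.8% in the 24 *Brd1*+/- libraries, with a mean of 37.9% ± 3.87 (SD). The mean share in *Brd1*+/- mice was 39.3% ± 3.00 with vehicle, 36.6% ± 4.67 with IMN and 37.9% ± 3.77 with FLX (SD, n = 8 each), against 47.1% ± 4.31, 49.9% ± 5.33 and 46.6% ± 6.16 in WT mice. Of the WT libraries 18 lay above the highest *Brd1*+/- library, and 8 of the *Brd1*+/- libraries lay below the lowest WT library. The share of *Brpf1* was 29.7% ± 3.61 in WT and 35.5% ± 4.04 in *Brd1*+/- mice, and that of *Brpf3* 22.4% ± 3.84 and 26.6% ± 3.87 (SD, n = 24 each). These shares rise by construction when *Brd1* falls, and a share within a library does not depend on how that library was scaled. The summed level of the scaffolds was 73.6 ± 6.75 TPM in WT and 63.9 ± 7.43 TPM in *Brd1*+/- mice (SD, n = 24 each).

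**Figure D2:**
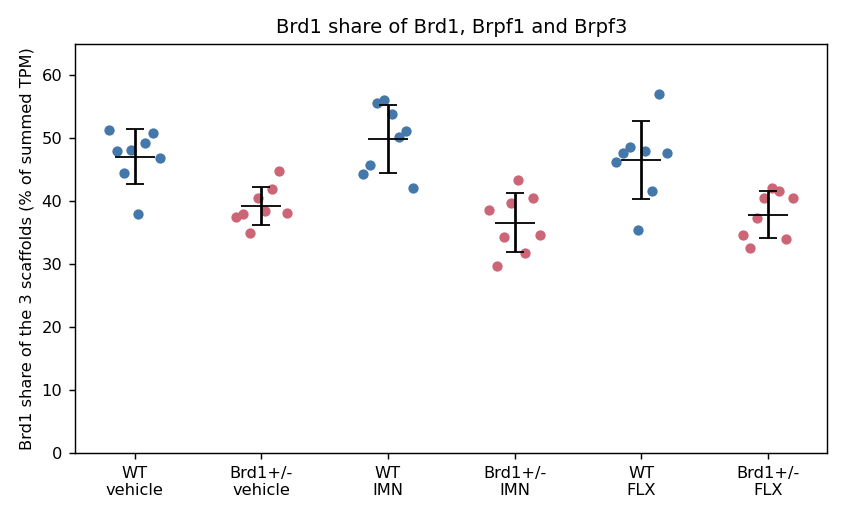
Share of *Brd1* in the summed TPM of *Brd1*, *Brpf1* and *Brpf3* (%, y axis) in each of the 48 libraries by group (x axis), with the mean and SD of 8 mice as a bar with caps. WT libraries (blue) run from 35.5% to 57.1% and *Brd1*+/- libraries (red) from 29.8% to 44.8%.

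*Brd1* was also set against all of its partners in the same library. Relative to the geometric mean of the other 8 members, *Brd1* stood at 0.24 ± 0.18 on the log2 scale in WT mice and at −0.34 ± 0.18 in *Brd1*+/- mice (SD, n = 24 each). On this measure 23 of 24 WT libraries lay above the highest *Brd1*+/- library, and 15 of 24 *Brd1*+/- libraries lay below the lowest WT library. The genotypes did not overlap with vehicle, where WT libraries ran from 0.06 to 0.41 and *Brd1*+/- libraries from −0.58 to −0.03, or with IMN, where they ran from 0.11 to 0.52 and from −0.75 to −0.27. With FLX they ran from −0.27 to 0.45 and from −0.57 to −0.09, so that they overlapped.

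Among the catalytic subunits *Kat7* (ENSMUSG00000038909, chromosome 11, 95274259 to 95310246, minus strand), the acetyltransferase that BRD1 binds, had the highest level. It was 58.1 ± 6.67 TPM in WT and 56.4 ± 7.56 TPM in *Brd1*+/- mice (SD, n = 24 each), with a pooled log2 difference of −0.05 (95% interval −0.16 to 0.06). *Kat6a* (ENSMUSG00000031540, chromosome 8, 22859535 to 22943259, plus strand) was 21.6 ± 2.70 and 22.6 ± 3.53 TPM, with a difference of 0.06 (−0.06 to 0.18). *Kat6b* (ENSMUSG00000021767, chromosome 14, 21481434 to 21672478, plus strand) was 27.8 ± 3.04 and 29.4 ± 4.82 TPM, with a difference of 0.07 (−0.04 to 0.19). *Kat7* made up 54.0% ± 3.49 of the summed TPM of the 3 catalytic subunits in WT and 51.9% ± 3.85 in *Brd1*+/- mice (SD, n = 24 each), with ranges that overlapped.

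*Kat6b* in IMN mice was the only partner to pass an unadjusted *p* of 0.05 in a genotype comparison. Its lowest, median and highest levels with IMN were 23.0, 27.6 and 30.7 TPM in WT and 23.3, 32.5 and 41.4 TPM in *Brd1*+/- mice. The ranges overlapped. *Brd1*+/- IMN replicates 1, 2, 3 and 4 (34.4, 37.2, 38.0 and 41.4 TPM) lay above the highest WT library, and no *Brd1*+/- library lay below the lowest. The log2 difference was 0.26 (95% interval 0.02 to 0.50, limma, unadjusted *p* = 0.0385, adjusted *p* = 1.00), and with vehicle it was −0.04 (−0.22 to 0.15). Over all genes 3.58% passed the same unadjusted threshold in the IMN comparison.

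The small subunits covered the widest span of levels. *Meaf6* (ENSMUSG00000028863, chromosome 4, 125085134 to 125113238, plus strand) had the highest level of the 9 genes, 119.6 ± 30.9 TPM in WT and 114.5 ± 25.3 TPM in *Brd1*+/- mice, and *Ing5* (ENSMUSG00000026283, chromosome 1, 93803965 to 93822101, plus strand) the lowest, 9.54 ± 1.13 and 10.1 ± 0.879 TPM (SD, n = 24 each). *Ing4* (ENSMUSG00000030330, chromosome 6, 125039760 to 125049265, plus strand) was 45.1 ± 7.30 and 47.0 ± 6.86 TPM. The pooled log2 differences were −0.05 (95% interval −0.26 to 0.16) for *Meaf6*, 0.08 (−0.02 to 0.18) for *Ing5* and 0.06 (−0.07 to 0.20) for *Ing4*. *Ing5* had the lowest unadjusted *p* of the partners, 0.098 (limma, adjusted *p* = 0.661). *Ing4* is uncertain, since 34.9% of its exonic bases are shared with *Gm44597*, a noncoding gene on the same strand with a mean of 4.70 TPM.

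**Figure D3:**
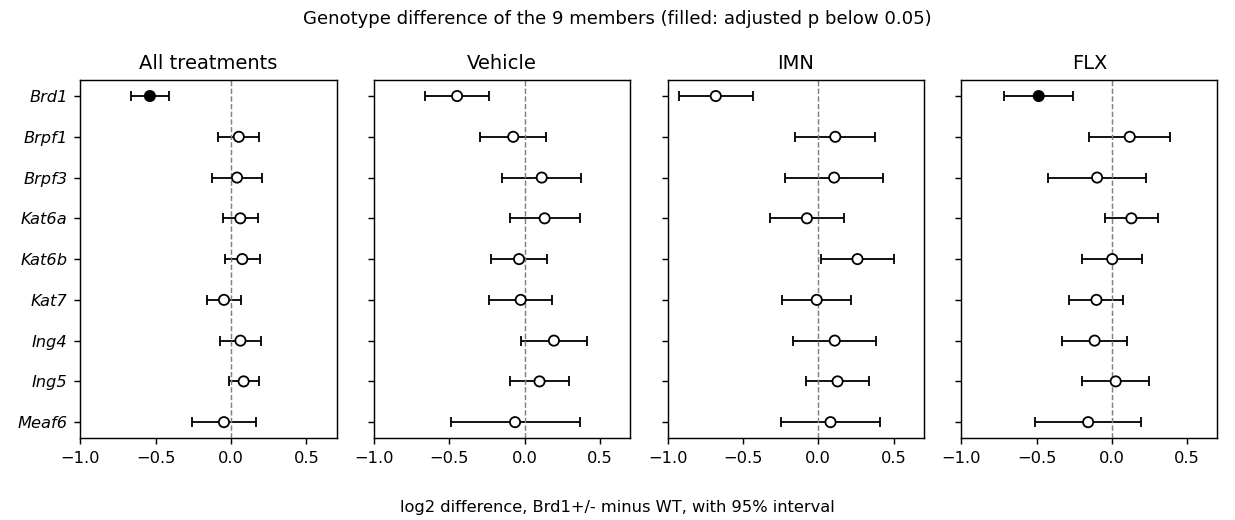
Genotype difference in log2(TPM + 0.1), *Brd1*+/- minus WT (x axis, 95% interval as bars), of the 9 genes (y axis), over all treatments and within each treatment. Filled points passed an adjusted *p* of 0.05. *Brd1* lies between −0.68 and −0.45, and the partners lie between −0.05 and 0.08 over all treatments.

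Within a treatment the partners ranged from −0.08 (*Brpf1*) to 0.19 (*Ing4*) with vehicle, from −0.08 (*Kat6a*) to 0.26 (*Kat6b*) with IMN, and from −0.16 (*Meaf6*) to 0.13 (*Kat6a*) with FLX, as log2 differences. Positive values numbered 4, 6 and 4 of 8. The median over the 9 members was 0.05 in the pooled fit, beside 0.01 over all genes tested.

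The order of levels among the 9 genes, taken from means over the treatments, changed at a single place between the genotypes. TPM corrects for gene length, so levels can be compared between genes. In WT mice the order of mean levels was *Meaf6*, *Kat7*, *Ing4*, *Brd1*, *Kat6b*, *Brpf1*, *Kat6a*, *Brpf3* and *Ing5*. Each gene was above the next in 22 to 24 of the 24 WT libraries, except that *Brpf1* was above *Kat6a* in 14 of 24, so these neighbours did not differ beyond their spread. In *Brd1*+/- mice *Kat6b* was above *Brd1* in 22 of 24 libraries, whereas in WT mice *Brd1* had been above *Kat6b* in 23 of 24. *Brd1* remained above *Brpf1* in 16 of 24 *Brd1*+/- libraries, and *Brpf1* was above *Kat6a* in 11 of 24, so that these 3 genes had levels that were not separated there. Within vehicle mice *Brpf1* and *Kat6a* also changed places, with *Brpf1* above *Kat6a* in 5 of 8 WT libraries and *Kat6a* above *Brpf1* in 7 of 8 *Brd1*+/- libraries.

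**Figure D4:**
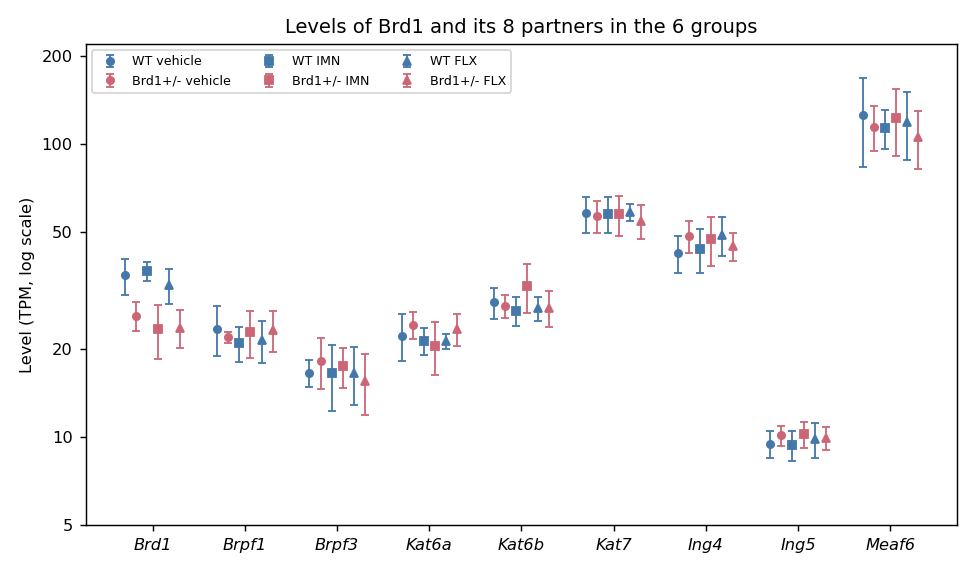
Mean level (TPM, log-scaled y axis) with SD of 8 mice for the 9 genes (x axis) in the 6 groups, WT in blue and *Brd1*+/- in red, with vehicle as circles, IMN as squares and FLX as triangles. *Meaf6* is highest (119.6 TPM over WT mice) and *Ing5* lowest (9.54 TPM), and *Brd1* shows the genotype gap in each treatment.

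The drugs were then compared with vehicle within each genotype, a question the design raises because antidepressants were given to both. *Brd1* had log2 differences of 0.06 (95% interval −0.14 to 0.26) with IMN and −0.11 (−0.33 to 0.12) with FLX in WT mice, and of −0.17 (−0.43 to 0.09) with IMN and −0.15 (−0.36 to 0.07) with FLX in *Brd1*+/- mice. FLX against IMN gave −0.17 (−0.35 to 0.01) in WT and 0.02 (−0.26 to 0.31) in *Brd1*+/- mice, and −0.16 and 0.04 with a term for the code range that these mice shared. These comparisons share vehicle or IMN libraries and are not independent of each other. None of the 9 genes was called in limma in any of these 6 comparisons. The shares of all genes called were 0% for IMN in WT, 0.335% for FLX in WT, 0.776% for IMN in *Brd1*+/-, 0.731% for FLX in *Brd1*+/-, 0% for FLX against IMN in WT and 0% for FLX against IMN in *Brd1*+/- mice. At an unadjusted *p* under 0.05, 1 member passed, for IMN in *Brd1*+/- mice, where 2252 genes (9.3%) did so. No member passed in the other 5 comparisons. There 1084 genes (4.58%) passed for IMN and 3949 (16.8%) for FLX in WT, and 1689 (6.94%) for FLX in *Brd1*+/-. For FLX against IMN 1123 (4.78%) passed in WT and 709 (2.99%) in *Brd1*+/- mice.

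That member was *Kat6a*, which had levels of 19.6, 24.7 and 28.2 TPM (lowest, median and highest) in *Brd1*+/- vehicle mice and 16.3, 20.4 and 29.1 TPM in *Brd1*+/- IMN mice. The groups overlapped, and the log2 difference was −0.25 (95% interval −0.49 to −0.01, limma, unadjusted *p* = 0.0424, adjusted *p* = 0.510). Cell type markers also differed between these groups. The summed oligodendrocyte markers had medians of 5251 TPM with vehicle (2195 to 15522) and 2248 TPM with IMN (1097 to 6458), and the astrocyte markers 820.3 TPM (452.4 to 1452) and 635.2 TPM (429.3 to 1372). Over all 48 libraries *Kat6a* followed these lists at r = 0.50 and 0.77, without scaling of the libraries, and their part in its difference was not tested. The other extremes among the partners were −0.15 (*Brpf1*) and 0.04 (*Ing4*) for IMN in WT, −0.13 (*Brpf1*) and 0.20 (*Ing4*) for FLX in WT, 0.20 (*Kat6b*) for IMN in *Brd1*+/-, and −0.23 (*Brpf3*) and 0.07 (*Brpf1*) for FLX in *Brd1*+/- mice. For FLX against IMN they were 0.00 (*Kat6a*) and 0.16 (*Ing4*) in WT, and −0.23 (*Kat6b*) and 0.20 (*Kat6a*) in *Brd1*+/- mice. A term for the code range cannot adjust a drug against vehicle, since vehicle and drug mice share no range. It leaves a different contrast, of the upper drug range against the lower vehicle range. For IMN in *Brd1*+/- mice this set 2 libraries against 3, and the *Kat6a* value was −0.46 (still not called). In such contrasts *Brpf1* and *Ing4* for IMN in WT had the opposite sign. So did *Brpf1* for FLX in WT and *Brpf3* for FLX in *Brd1*+/- mice. Whether the drug differences depend on the code range was not tested.

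Whether the drug differences depended on genotype was tested as an interaction. For *Brd1* the interaction was −0.23 on the log2 scale (95% interval −0.54 to 0.08, unadjusted *p* = 0.137, limma) with IMN and −0.04 (−0.34 to 0.26) with FLX, and the FLX value turned positive after median-ratio scaling and quantile normalization. No member was called, against 0.536% of genes for IMN and 1.71% for FLX. An unadjusted *p* under 0.05 was found for *Kat6b* with IMN and *Ing4* with FLX, where 2464 (9.24%) and 4469 (16.8%) of all genes tested passed it. The interaction of *Kat6b* was 0.30 (95% interval 0.01 to 0.59, limma, unadjusted *p* = 0.0442, adjusted *p* = 0.528). That of *Ing4* was −0.31 (−0.60 to −0.01, limma, unadjusted *p* = 0.0403, adjusted *p* = 0.271). *Ing4* had medians of 45.6 TPM in WT vehicle, 49.2 in *Brd1*+/- vehicle, 47.6 in WT FLX and 44.5 in *Brd1*+/- FLX mice, and the ranges of the 4 groups overlapped.

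The other parts of the acetylation machinery were described as 4 lists of genes. The 3 JADE scaffolds, which recruit KAT7 toward histone H4 in place of the BRPF proteins, gave 0 calls in each direction in the pooled fit, with a median log2 difference of 0.01. *Jade2* had the lowest unadjusted *p*, 0.0572 (log2 difference −0.08, 95% interval −0.16 to 0.00). The 9 other lysine acetyltransferases gave 0 calls and a median of −0.02. *Kat5*, the catalytic subunit of the TIP60 complex, was 52.7 ± 6.77 TPM in WT and 47.9 ± 5.08 TPM in *Brd1*+/- mice (SD, n = 24 each), with a difference of −0.13 (−0.23 to −0.03, limma, unadjusted *p* = 0.0094, adjusted *p* = 0.418). Within a treatment the *Kat5* difference was −0.05 with vehicle, −0.07 with IMN and −0.28 with FLX. The 11 histone deacetylases, which remove the mark, gave 0 calls and a median of −0.07. *Hdac5*, a deacetylase that shuttles between nucleus and cytoplasm, had a difference of −0.16 (−0.30 to −0.02, unadjusted *p* = 0.0276, adjusted *p* = 0.515). The 12 other bromodomain proteins gave 0 calls and a median of −0.06, and the lowest unadjusted *p* among them was that of *Baz1b*, a chromatin remodeler subunit. Its difference was −0.07 (−0.16 to 0.03, limma, unadjusted *p* = 0.151, adjusted *p* = 0.711). The median over all genes was 0.01. At an unadjusted *p* under 0.05 there were 0, 2, 1 and 0 members of these lists in the pooled fit, beside 2388 genes (8.55%) in all, so that the lists together held a share near that of all genes. The limma fits within a treatment, of drug against vehicle and of the interactions also gave 0 calls in each list. In the JADE list signs turned between treatments. *Jade1* was 0.27 with vehicle (limma, unadjusted *p* = 0.0305) and −0.29 with FLX (0.0147), and *Jade3* −0.29 (0.177) and 0.43 (0.0248). Their interactions with FLX were −0.56 (limma, unadjusted *p* = 0.00106, adjusted *p* = 0.0562) and 0.73 (0.0120, 0.163). In that interaction 16.8% of all genes passed an unadjusted *p* of 0.05.

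The variation between mice of a group was described by correlating the deviations from group means over the 48 libraries. Among the 36 pairs of members the median Pearson r was 0.17, from −0.15 to 0.77. The highest was between *Kat7* and *Meaf6* (r = 0.77), followed by *Brd1* with *Meaf6* (0.58), *Brd1* with *Kat7* (0.57) and *Brd1* with *Kat6a* (0.51). *Brd1* correlated with the other scaffolds at 0.17 (*Brpf1*) and 0.07 (*Brpf3*). The points share the scaling of their library. *Brd1*, *Kat7*, *Kat6a* and *Meaf6* followed the median-ratio factor of the library at r = 0.73, 0.84, 0.72 and 0.72, against 0.03 to 0.32 for the other 5 members. After median-ratio scaling the median pair was at 0.00, *Kat7* with *Meaf6* at 0.60, *Brd1* with *Meaf6* at 0.29, *Brd1* with *Kat7* at 0.10, *Brd1* with *Kat6a* at 0.09, and *Brpf1* with *Kat6b* at 0.50.

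**Figure D5:**
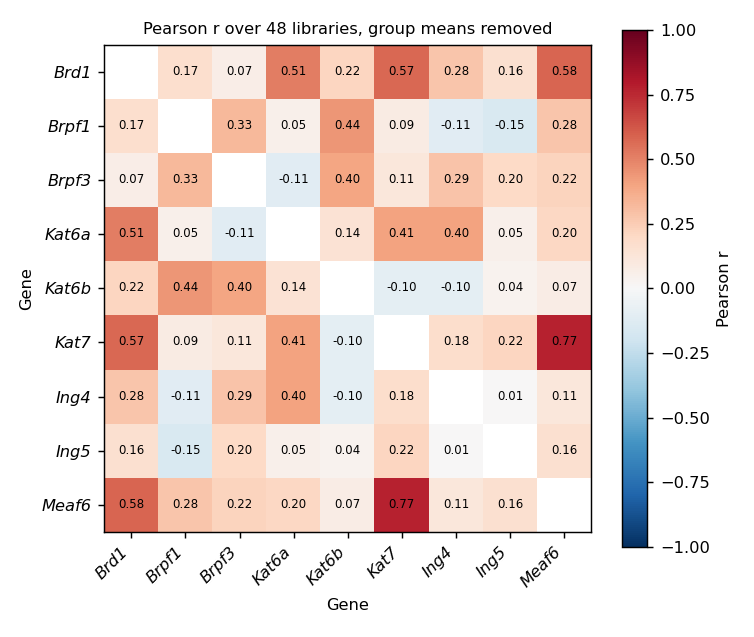
Pearson r between pairs of the 9 genes (both axes) over 48 libraries, computed on log2(TPM + 0.1) after subtracting group means, on a colour scale from −1 to 1. *Kat7* with *Meaf6* is highest at 0.77, and *Brd1* is near 0.5 to 0.6 with *Meaf6*, *Kat7* and *Kat6a*, values that fall to 0.29, 0.10 and 0.09 after median-ratio scaling.

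Some members also moved with cell type markers between punches of a group. *Kat6a* followed the mean log2 level of the 5 astrocyte markers at r = 0.77 over the 48 libraries. *Kat7* and *Meaf6* followed the amygdala markers at 0.73 and 0.69 and ran against the markers of striatal projection neurons at −0.74 and −0.68. *Brpf1* and *Brpf3* ran against the oligodendrocyte markers at −0.51 and −0.53. *Brd1* was at 0.44 with the amygdala and −0.47 with the striatal markers. These values come from levels without median-ratio scaling and were not recomputed after it. *Brd1*, *Kat7*, *Kat6a* and *Meaf6* are also the members that followed the median-ratio factor of the library (r = 0.73, 0.84, 0.72 and 0.72). Shared scaling and movement with cell types were not separated for them here. The part of cell makeup in the members' levels was not tested beyond the covariate fit given above.

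The genes whose pattern was most like that of *Brd1*, by the same correlation over 48 libraries and 13833 protein-coding genes with a mean of at least 1 TPM, were *Rnf215* (r = 0.78), *Wipi2* (0.75), *Amy1* (0.74), *Pmf1* (0.74) and *Vwa5b1* (0.73), beside a median of 0.24 over all of these genes. After median-ratio scaling the values were 0.55, 0.45, 0.47, 0.50 and 0.45, beside a median of −0.01, and *Rnf215* again had the highest. None of the 5 is a member of the assemblies described here.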

How the data were processed

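RNA from amygdala punches of 48 mice had been made into TruSeq libraries and sequenced as single-end reads. Per the study's methods and the submitters' processing notes, the authors trimmed with Trimmomatic, aligned to GRCm38 with HISAT2 2.1.0 and quantified with StringTie 1.3.4, and ran edgeR on counts. The values deposited by the authors are TPM (52636 genes, sums of 999524 to 999772 per library), which keep no depth, so no counting interval was computed. The series' design text names other regions, and the sample labels (amygdala) were followed. Whether counting used strand is not stated, so overlapping genes are uncertain. The members and lists were chosen with earlier results of these data known.

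Groups were taken from the labels. Genes with at least 0.1 TPM in at least 8 libraries of a fit were tested with limma 3.58.1 (R 4.3.3, eBayes with a trend) on log2(TPM + 0.1), a scale that understates changes of low genes. Benjamini-Hochberg adjusted *p*-values under 0.05 over all genes tested were called. All 9 members passed the filter in each of 12 comparisons. Permutation tests of *Brd1* enumerated all arrangements of 8 against 8 libraries (Python 3.11.15). Annotation and the printed *Brd1* sequence came from GENCODE M21 on GRCm38. On simulated data of the vehicle comparison (24279 genes) 60 of 100 genes changed 2-fold and 91 of 100 changed 4-fold were recovered, with 6 false calls. The changed genes were not drawn from those of the lowest level, and noise was drawn for each gene on its own. No change as small as that of *Brd1* with vehicle (log2 difference −0.45) was simulated. Besides the members, the text names from each list the gene with the lowest unadjusted *p* in the pooled fit, since none was called, and the 5 genes most like *Brd1*. *Jade1*, *Jade3* and single amygdala markers were named after their values had been seen. Alternatives were pseudocounts of 0.01 and 1, no filter or 1 TPM, 3 scalings, eBayes without a trend, a replicate block, a code range term, 1 fit of 48 libraries, marker covariates and leaving out each library, of which the last within a treatment was added after the data had been seen.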

Additional observations from a re-analysis of the deposited data

Results flagged for a closer look

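Among the 54 combinations of the 9 members and 6 groups, 2 held a library set apart from the other 7 of its group by a gap above Dixon's 95% limit for the gap as a share of the group's range, which chance passes in about 1 in 20 groups. The lowest *Brpf1* level in *Brd1*+/- vehicle mice, in replicate 2, was 19.8 TPM, with the next at 21.7 TPM (gap 0.530 of the range). The highest *Brpf3* level in *Brd1*+/- FLX mice, in replicate 1, was 23.2 TPM, with the next at 16.6 TPM (gap 0.557 of the range). No interaction of genotype with a drug was called for a member.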

How the results depend on the processing

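The pooled *Brd1* difference was called in all 11 alternative fits (log2 −0.55 to −0.52) and in all 48 fits that left out 1 library (−0.56 to −0.51, highest adjusted *p* 2.46e-06). Within vehicle mice *Brd1* became a call without a filter (−0.45), after median-ratio scaling (−0.47), quantile normalization (−0.46) and rescaling to protein-coding genes (−0.43), in 1 fit of all libraries (−0.45) and without WT vehicle replicate 3 (range over 16 fits −0.51 to −0.41). Within IMN mice it did so after median-ratio scaling (−0.69), quantile normalization (−0.67), rescaling (−0.68), in 1 fit of all libraries (−0.68) and without *Brd1*+/- IMN replicate 4 or 7 (range −0.73 to −0.61). Within FLX mice it was lost without a trend (−0.49), with a code range term (−0.52), with the replicate block (−0.49, adjusted *p* = 0.0704) and without WT FLX replicate 1, 2, 3, 5, 7 or 8 or *Brd1*+/- FLX replicate 2, 3, 5, 7 or 8 (range −0.54 to −0.43). The cause was not tested.

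The replicate numbers did not pair the mice: same-numbered libraries deviated together at a median r of −0.10 to 0.15, with negative pairs in each comparison. The replicate block left the pooled *Brd1* difference at −0.54. Apart from the loss of the *Brd1* call within FLX mice given above, it changed no call among the members. Values that turned sign were uncalled: the *Brd1* interaction with FLX after median-ratio scaling (0.05) and quantile normalization (0.03), *Meaf6* in the pooled fit with marker covariates (0.02), and with a code range term *Brpf1* (0.03) and *Ing4* (−0.04) for IMN in WT, *Brpf1* for FLX in WT (0.04) and *Brpf3* for FLX in *Brd1*+/- mice (0.15). Since vehicle and drug mice share no code range, that term leaves a drug contrast between single ranges. Of 726 further recomputations of values not printed, 43 turned sign and 0 were called. *Brd1* against the other 8 members differed by −0.57 between genotypes on the log2 scale, beside −9.91 percentage points of scaffold share.

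Counts over all genes moved more: 6 pooled calls became 2 to 42 over the alternatives other than leaving out a library, 172 with vehicle 24 (1 TPM filter) and 294 (no filter) with still more in 1 fit of all libraries, 364 with FLX 29 to 398, 79 for FLX in WT 0 to 128, 188 for IMN in *Brd1*+/- 14 to 439, 178 for FLX in *Brd1*+/- 15 to 415, and 143 and 455 interaction calls 15 to 212 and 259 to 481. When 1 library was left out, the counts were 4 to 19 in the pooled fit, 80 to 349 with vehicle, 3 to 6 with IMN and 70 to 490 with FLX. They moved by over 1.5 times in the pooled fit without WT vehicle replicate 1, WT IMN replicate 5, WT FLX replicate 5, 6 or 7, *Brd1*+/- IMN replicate 5 or 7 or *Brd1*+/- FLX replicate 2. With vehicle they did so without WT replicate 1 or *Brd1*+/- replicate 2, 3, 4, 5, 6 or 8, and with FLX without WT replicate 1, 2, 3, 5 or 7 or *Brd1*+/- replicate 3, 5, 7 or 8. The median of all genes in the interaction with FLX was −0.10 and moved by over 0.1 under quantile normalization, to 0.02. The study's methods give a minimum number of reads per sample, and the depth of each library is unknown. A difference that was not called is bounded only by the interval given for it.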
